A study of Mus musculus with 2 samples.

Results

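Malat1, Neat1, Gm42418, Gm26917 and Kcnq1ot1 are 5 long noncoding RNA genes whose transcripts stay in the nucleus or are counted over repeated ribosomal DNA, and they were followed here through single-cell libraries of EMT6 tumors. The members were taken by gene symbol, 5 of the 55450 genes in the count tables, and each symbol was found once. The rule that took them used no measured value, though the list was drawn up with earlier results of these data known. The 5 genes together held 1.54% of all unique molecular identifiers (UMIs, each a count of 1 captured RNA molecule) in the Olaparib + LLY-283 library.

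EMT6 is a mouse mammary carcinoma line used as a model of triple-negative breast cancer. BALB/c mice, 5 to 6 weeks old when bought, carried subcutaneous tumors grown from 200000 injected EMT6 cells. Both groups received LLY-283, an inhibitor of the arginine methyltransferase PRMT5, at 50 mg/kg for 3 days on and 4 days off, together with Olaparib, a PARP inhibitor, at 50 mg/kg daily. The Combo group was also given 200 µg of an antibody to PD-1, an immune checkpoint receptor, at intervals of 3 days. Tumors of 3 mice were pooled before each library was made and dead cells were removed on magnetic beads, so there is 1 library per group, cells are not replicates, and treatment, pool of mice and library preparation cannot be told apart. No untreated library was analysed here. For this reason no p-values are given: each value is a share of UMIs with a 95% exact Poisson interval, which covers counting error only, and a difference of at least 2-fold in either direction is named as such without a test.

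The Olaparib + LLY-283 library held 16115 cells with a median of 7376 UMIs, and the Combo library held 7542 cells with a median of 3613.5. Cells under 2000 UMIs made up 15.9% and 39.9% of the libraries. The libraries also stood apart in cells with 20% or more mitochondrial UMIs, which numbered 86 in Olaparib + LLY-283 (0.534%) and 1586 in Combo (21%). The libraries shared 39 cell barcodes. Tumor-like cells, named by Epcam and the keratins Krt8, Krt18, Krt7 and Krt19, numbered 8294 and 2001, and 5220 and 3054 cells carried too few marker UMIs for any class. The monocyte list was not used to name a class, though 75 and 104 cells passed it. No cell was named as a B cell by its markers.

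Malat1 is among the most abundant long noncoding RNAs of mammalian cells and lies in nuclear speckles, bodies rich in splicing factors. Neat1, its neighbour on the same chromosome, is the scaffold of paraspeckles and has a short polyadenylated form and a long form that builds these bodies. Kcnq1ot1 is transcribed from the paternal allele, antisense to the potassium channel gene Kcnq1, and silences the neighbouring imprinted genes in cis. Gm42418 and Gm26917 are annotated as long intergenic noncoding RNAs at the ribosomal DNA segment of chromosome 17. Nuclear RNAs are held back when a cell's membrane leaks and cytoplasmic RNA is lost, which is why Malat1 is often read as a sign of cell integrity in single-cell work. The library chemistry primes on stretches of A, so a transcript can be captured at its poly(A) tail or at A runs encoded in the genome.

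The A runs of the members are shown because they differ widely between the genes and mark where oligo-dT could anneal inside the transcripts. All positions are on GRCm38 (mm10) with GENCODE M21 gene models, every sequence is written 5′ to 3′ on the transcript strand, and capitals mark the A run unless said otherwise. Malat1 lies at chr19:5795690-5802672 on the minus strand, and its longest transcript is 6983 bases in 1 exon. It has a single run of 8 or more A, of 12 A, close to its 3′ end and inside the stretch shown, chr19:5795964-5796023. This is the genomically encoded A-rich tract that is left at the 3′ end of the RNA after RNase P cuts off the small tRNA-like RNA that begins just downstream.
Malat1: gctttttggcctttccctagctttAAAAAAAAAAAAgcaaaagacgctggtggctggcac
Neat1 lies at chr19:5824708-5845478 on the minus strand, 22035 bases from Malat1, and its long transcript is 20771 bases in 1 exon with no run of 8 or more A. The last 60 bases of its short form, chr19:5842307-5842366, are shown, where the capitals mark AATAAA, the polyadenylation signal, a hexamer that 27.2% of 141515 transcripts hold in their last 60 bases. The last 60 bases of the long form, chr19:5824708-5824767, hold a run of 5 A.
Neat1, short form: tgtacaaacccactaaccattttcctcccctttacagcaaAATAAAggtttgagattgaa
Neat1, long form: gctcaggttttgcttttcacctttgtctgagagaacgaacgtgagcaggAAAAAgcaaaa
Kcnq1ot1 lies at chr7:143203458-143296549 on the minus strand, inside the Kcnq1 gene on the opposite strand. Its unspliced model of 93092 bases holds 30 runs of 8 or more A, the longest of 41 A inside the stretch shown, chr7:143226925-143227005.
Kcnq1ot1: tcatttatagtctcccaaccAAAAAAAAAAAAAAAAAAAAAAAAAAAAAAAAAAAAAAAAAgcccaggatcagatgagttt
Gm42418 lies at chr17:39846958-39848788 and Gm26917 at chr17:39843013-39846341, both on the plus strand and 616 bases apart. Their models of 1831 and 3329 bases hold no run of 8 or more A, and the longest runs are of 6 A and 4 A, inside the stretches shown, chr17:39847142-39847197 and chr17:39845111-39845164.
Gm42418: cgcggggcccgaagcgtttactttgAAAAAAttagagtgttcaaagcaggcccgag
Gm26917: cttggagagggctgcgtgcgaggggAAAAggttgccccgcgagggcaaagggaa

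Transcripts of like length carried a run of 8 or more A in 50.5% of cases for the length of Malat1, in 16.2% for Gm42418 and in 28.4% for Gm26917, so the absence of such a run in the pair on chromosome 17 is common for their lengths. For the length of Neat1 the share was 57.1%, and for that of Kcnq1ot1 6 of 7 transcripts carried one. Gm26917 is rich in G and C, at 69.1%. The Gm42418 model covers 1245 of the 1849 bases of Rn18s-rs5, a sequence related to 18S ribosomal RNA in the RefSeq annotation of GRCm38.p6, which lists Gm42418 as a synonym. It also shares a stretch of 1244 identical bases, 67.9% of its length, with the other strand of the ribosomal RNA model CT010467.1. UMIs of Gm42418 therefore cannot be told apart from RNA of near-identical ribosomal copies, and whether intronic or antisense reads were counted for Kcnq1ot1 is not given in the sources used here. The deposited counts come from 3′ ends, so shares were compared between cells for 1 gene at a time, and where the UMIs of 2 members are set against each other, the ratio is followed between groups of cells and says nothing of which gene has more RNA.

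Over all cells, Malat1 took 1.36% of UMIs in Olaparib + LLY-283 (2000606 UMIs) and 1.11% in Combo (1805778 UMIs). Gm42418 took 0.103% (0.103 to 0.104) and 0.207% (0.207 to 0.208), the one member whose share in Combo was about double. Neat1 took 0.0533% (0.0529 to 0.0537) and 0.0624% (0.0620 to 0.0628). Kcnq1ot1 took 0.0195% (0.0192 to 0.0197) and 0.0183% (0.0181 to 0.0185), and Gm26917 0.00652% (0.00639 to 0.00665) and 0.00639% (0.00627 to 0.00651), which differ little between the libraries. Per cell, the median Malat1 share was 1.13% in Olaparib + LLY-283, with 0.247% and 3.71% as the values that the lowest and the highest 10% of cells lie beyond. In Combo the median was 0.932%, and these values were 0.191% and 3.6%. With every cell thinned to 500 UMIs so that depth no longer set detection, Malat1 was found in 92.5% and 91.2% of cells, Gm42418 in 42.1% and 74.4%, Neat1 in 24.4% and 29.0%, Kcnq1ot1 in 9.31% and 5.89%, and Gm26917 in 4.26% and 4.87%. Before thinning the same shares were 99.7% and 98.9%, 96.4% and 99.9%, 80.5% and 69.7%, 58.2% and 43.3%, and 34.9% and 40.8%. No cell class lacks these RNAs, so no class served as a background for free RNA.

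The first comparison asked how the members differed between cell classes of the same library, each class against the cells of all other named classes. Over cells of all depths, neutrophil-like cells, named by S100a8, S100a9, Csf3r and 6 further genes, were the high class for Malat1 and Neat1 in both libraries. Of the 887 neutrophil-like cells of Olaparib + LLY-283, 736 were under 2000 UMIs. Under that limit, Malat1 was higher in tumor-like than in neutrophil-like cells of Olaparib + LLY-283, and lower in those of Combo, as given below. Tumor-like cells, again over all depths, were the low class for Gm42418 in both libraries, and were at or near the top of the order for Kcnq1ot1. Classes differed in depth, with median UMIs of 9886 and 48744 in tumor-like and 726 and 1867 in neutrophil-like cells. Among cells under 2000 UMIs, Gm42418 stood higher in tumor-like than in neutrophil-like cells of both libraries, as given below. The part of depth and of mitochondrial share in the class order was not tested. Of the 33 tumor-like cells of Combo under 2000 UMIs, 13 held 20% or more mitochondrial UMIs. Of 65 pairs of a member and a class with 50 or more cells, 20 reached 2-fold. They have to be read against the share of all genes with at least 100 UMIs that did so in the same comparison. In Olaparib + LLY-283 this share was 17.8% for tumor-like, 13.7% for neutrophil-like, 31.6% for macrophage-like, 36.9% for DC-like, 49.9% for T or NK-like, 28.6% for CAF-like and 31.3% for osteoclast-like cells. In Combo it was 35.0% for tumor-like, 44.8% for neutrophil-like, 39.5% for macrophage-like, 39.8% for DC-like, 32.7% for CAF-like and 52.4% for myogenic-like cells, so 2-fold differences were common there. For small classes these shares hold counting error, as genes with few or no UMIs in the class count in them.

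Malat1 took 2.21% of UMIs (2.18 to 2.23) in the 887 neutrophil-like cells of Olaparib + LLY-283 and 2.62% (2.60 to 2.63) in the 1535 of Combo. Dendritic cell (DC)-like cells followed in Olaparib + LLY-283 at 2.05% (1.99 to 2.11). The next classes there, endothelial-like at 1.72% (1.64 to 1.80), fibroblast (CAF)-like at 1.64% (1.62 to 1.67), macrophage-like at 1.61% (1.59 to 1.62) and T or NK-like at 1.58% (1.48 to 1.68), had intervals that overlapped those of their neighbours in the order. Tumor-like cells took 1.23% in Olaparib + LLY-283 and 0.964% in Combo, below every class but the myogenic-like. The order of the middle classes was not kept in Combo, where osteoclast-like cells (1.68%, 1.64 to 1.71) and T or NK-like cells (1.62%, 1.56 to 1.67) came next after neutrophil-like cells and DC-like cells took 1.5% (1.47 to 1.53). The lowest class in both libraries was the myogenic-like one, named by muscle genes such as Mylpf, Acta1 and Ckm, at 1.03% (0.945 to 1.11; 35 cells) and 0.232% (0.201 to 0.266; 58 cells), and 1 cell gave 267 of the 602 Malat1 UMIs of the first, which took 0.599% without it. In Combo that was a log2 ratio of -2.17 (-2.38 to -1.97) to the other named classes, a comparison in which more than 50% of genes differed 2-fold. That share includes genes with few or no UMIs in these 58 cells.

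Neat1 stood out more sharply in neutrophil-like cells. It took 0.120% of UMIs (0.115 to 0.126) in Olaparib + LLY-283 and 0.273% (0.268 to 0.279) in Combo, log2 ratios of 1.21 (1.15 to 1.28) and 2.25 (2.22 to 2.28) to the other named classes. Macrophage-like cells, marked by C1qa, C1qb, C1qc and Csf1r, came second in both libraries at 0.0694% (0.0659 to 0.0730) and 0.0768% (0.0747 to 0.0789). In Combo the osteoclast-like class at 0.0735% (0.0663 to 0.0812) did not differ from the macrophage-like one beyond counting error. Shares in tumor-like cells were 0.0517% and 0.0563%. T or NK-like cells were low in both libraries at 0.0235% (0.0128 to 0.0394) and 0.0172% (0.0121 to 0.0237), on 14 and 37 UMIs, and the myogenic-like value of Combo, 0.00923% (0.00398 to 0.0182), rested on 8 UMIs.

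Over cells of all depths, the low end for Gm42418 was held by the tumor-like class, which was also low for Malat1. Tumor-like cells took 0.0904% (0.0898 to 0.0910) in Olaparib + LLY-283 and 0.161% (0.160 to 0.162) in Combo, the least of the 9 classes, with log2 ratios of -1.13 (-1.16 to -1.10) and -1.24 (-1.25 to -1.23). Endothelial-like cells, named by Pecam1, Cdh5 and Kdr, took 0.631% (0.584 to 0.681; 27 cells) and 0.885% (0.834 to 0.938; 12 cells), the highest share in Olaparib + LLY-283 and level with the myogenic-like cells of Combo (0.885%, 0.823 to 0.950). In Olaparib + LLY-283 the CAF-like (0.215%), T or NK-like (0.203%) and neutrophil-like (0.2%) classes lay close together. Neutrophil-like cells of Combo took 0.482% (0.475 to 0.489). For the myogenic-like cells of Combo the log2 ratio to the other named classes was 2.25 (2.15 to 2.36).

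Kcnq1ot1 was carried by tumor-like cells at 0.0190% (0.0187 to 0.0193) and 0.0183% (0.0180 to 0.0185). In Combo this was a log2 ratio of 1.04 (0.95 to 1.12) to the other named classes. Neutrophil-like (0.00679%, 0.00597 to 0.00769), macrophage-like (0.00816%, 0.00749 to 0.00888) and DC-like cells (0.00663%, 0.00482 to 0.00890) of Combo were all more than 2-fold below the other named classes, at log2 ratios of -1.37, -1.12 and -1.38, the last on 44 UMIs. In Olaparib + LLY-283 the 3 classes lay nearer to the tumor-like level, at 0.0161% (0.0142 to 0.0182), 0.0107% (0.00939 to 0.0122) and 0.0151% (0.0105 to 0.0208), and none reached 2-fold. Of the 36 UMIs in the DC-like cells there, 14 came from 1 cell, and the share without it was 0.0102%. Of the 887 neutrophil-like cells there, 134 had a doublet score over 0.25 and 64 lay in clusters named as tumor. In Combo these were 18 and 12 of 1535. In the neutrophil-like cells of cluster 8 of Olaparib + LLY-283, Kcnq1ot1 took 0.00684% with the top cell left out. The part of doublets and tumor cells in the class value was not tested. CAF-like cells took 0.0144% (0.0122 to 0.0169) and 0.0165% (0.0144 to 0.0188). Gm26917 varied little between the larger classes: tumor-like cells took 0.00609% (0.00594 to 0.00625) and 0.00526% (0.00512 to 0.00540), while in the neutrophil-like class Gm26917 held 0.00886% (0.00744 to 0.0105) in Olaparib + LLY-283 and 0.00896% (0.00802 to 0.00999) in Combo, where 1 cell gave 83 of the 326 UMIs and the share without it was 0.00669% (0.00587 to 0.00758). Its one 2-fold difference, in T or NK-like cells of Olaparib + LLY-283 at a log2 ratio of 1.13, rested on 8 UMIs and an interval from -0.08 to 2.11.

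**Figure D1:**
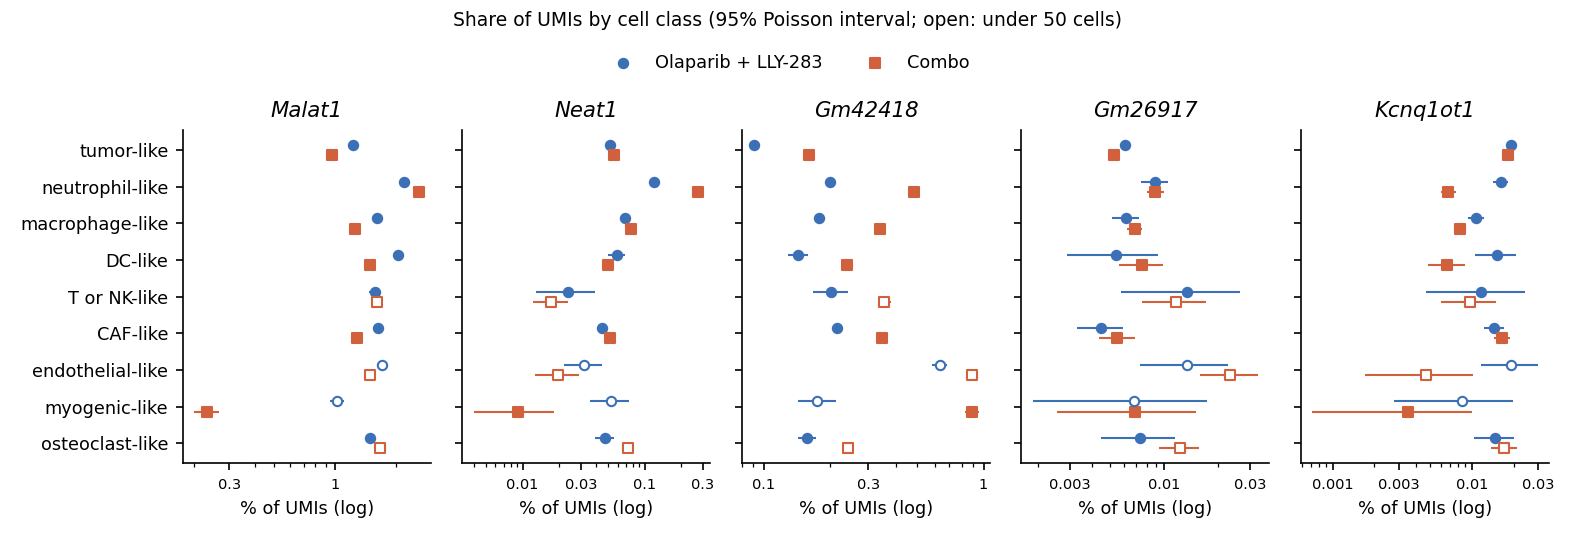
Share of all UMIs (percent, log axis) held by each of the 5 noncoding RNAs in 9 cell classes of the Olaparib + LLY-283 (circles) and Combo (squares) libraries, with 95% exact Poisson intervals; open symbols mark classes under 50 cells. Taken over all depths, neutrophil-like cells are highest for Malat1 and Neat1 in both libraries, and tumor-like cells are lowest for Gm42418, at 0.0904% and 0.161%.

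Genes whose levels ran most like those of each member were sought over the 13 groups of a library and a class with at least 50 cells, among 8539 genes, as a Pearson correlation of log2(CPM + 1), where CPM is the UMI count scaled to the same total in every group. This is a description over points that share libraries and depth. Malat1 ran closest to Ing3 (0.98), Samd9l (0.97) and Arl5b (0.96). Neat1 ran closest to Ccnl1 (0.94), a cyclin linked to splicing, Plaur (0.94), the urokinase receptor, and Rab20 (0.93). Gm42418 ran closest to Mir6236 (0.95), Lars2 (0.88), the mitochondrial leucyl-tRNA synthetase, and Ngly1 (0.88). Kcnq1ot1 ran closest to Hnrnpa0 (0.94), Mycbp (0.93) and Rhod (0.93), while the nearest genes to Gm26917, Zdhhc18, Sun2 and Cd82, reached 0.86. Among the members themselves, Malat1 and Neat1 ran together (0.80), Gm42418 and Kcnq1ot1 ran opposite (-0.82), and Gm42418 and Gm26917, neighbours in the genome, showed 0.17. The myogenic-like group of Combo, 58 cells with 8 Neat1 UMIs, was the lowest of the 13 for Malat1 and Neat1 and the highest for Gm42418. The correlations without it are not given here.

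The second comparison set the Combo library against the Olaparib + LLY-283 library within the classes that had at least 50 cells in both, for which the antibody is the labelled difference. Within each of these classes the Combo cells were deeper. Median UMIs were 9886 and 48744 in tumor-like, 726 and 1867 in neutrophil-like and 2294.5 and 11827 in macrophage-like cells. They were 1834 and 8454 in DC-like and 3814 and 19845.5 in CAF-like cells. The part of depth in the library differences was not tested. Gm42418 was higher in Combo in each of the 5 classes: by 1.78-fold in tumor-like, 2.41-fold in neutrophil-like, 1.89-fold in macrophage-like, 1.67-fold in DC-like and 1.62-fold in CAF-like cells. Malat1 was lower in 4 of the 5, by less than Gm42418 was higher. Its log2 ratios were -0.35 in tumor-like, -0.34 in macrophage-like, -0.45 in DC-like and -0.35 in CAF-like cells. In neutrophil-like cells Malat1 was higher, at 0.25 (0.23 to 0.26). In tumor-like cells no member reached 2-fold, and 1.49% of genes did. There the log2 ratios of the others were 0.12 for Neat1 (0.11 to 0.14), -0.06 for Kcnq1ot1 (-0.09 to -0.03) and -0.21 for Gm26917 (-0.27 to -0.16). The Gm42418 ratio in tumor-like cells, 0.83 (0.82 to 0.84), was exceeded by 1.40% of the genes tested.

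Of 25 pairs of a member and a class, 4 reached 2-fold between the libraries, and 3 of them were in neutrophil-like cells, where 22.5% of genes did so and the median of all genes was -0.33. Neat1 was higher in Combo at a log2 ratio of 1.18 (1.11 to 1.25) and Gm42418 at 1.27 (1.21 to 1.32). Kcnq1ot1 was lower at -1.24 (-1.51 to -0.98), with 247 UMIs in each library. Gm26917 stood at 0.02 (-0.28 to 0.32), and at -0.33 (-0.65 to -0.01) once the cell with the most Gm26917 UMIs was left out of each library. The neutrophil-like cells came from different clusters: cluster 7 held 16 cells of Olaparib + LLY-283 and 1053 of Combo, and cluster 8 held 636 and 371. A further 134 and 18 of the neutrophil-like cells had a doublet score over 0.25, and 64 and 12 lay in clusters named as tumor. Within the neutrophil-like cells of cluster 8, 621 and 342, Neat1 took 0.208% and 0.367%, a smaller log2 ratio of 0.82 (0.70 to 0.94). Gm42418 there took 0.256% and 0.668% (1.38) and Malat1 2.33% and 3.23% (0.47), while Kcnq1ot1 at -1.61 rested on 34 and 12 UMIs. Gm26917 there was lower in Combo at -0.85 (-1.68 to -0.05), on 37 and 22 UMIs, of which 1 Combo cell gave 13. In that subset 99 of 1237 genes differed 2-fold. The fourth difference, Kcnq1ot1 in DC-like cells (-1.18, -1.85 to -0.51), rested on 36 and 44 UMIs and fell short of 2-fold, at -0.74 (-1.52 to 0.08), once the cell with the most Kcnq1ot1 UMIs was left out of each library. These UMIs are under the 100 required of the genes in the background of 2.47%, and 31 of the 105 and 23 of the 73 DC-like cells lay in macrophage-like clusters. In macrophage-like and CAF-like cells no member reached 2-fold, and 2.25% and 1.69% of genes did.

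The third comparison set cells under 2000 UMIs against deeper cells of the same library. Gm42418, Gm26917 and Neat1 took a more than 2-fold larger share in shallow cells of both libraries, Malat1 in Olaparib + LLY-283 and not in Combo, and Kcnq1ot1 in neither. For Neat1 in Combo the sign turned with the limit set at 1000 UMIs (-0.35) and within tumor-like cells (-1.10). The 2-fold differences are 7 of 10 pairs, where 19.1% of genes in Olaparib + LLY-283 and 26.8% in Combo differed 2-fold in either direction, and the medians of all genes were 0.10 and -0.39. Gm42418 went from 0.0983% in deep to 0.377% in shallow cells of Olaparib + LLY-283 (log2 ratio 1.94, 1.91 to 1.97) and from 0.19% to 1.16% in Combo (2.62, 2.60 to 2.63). Gm26917 went from 0.00623% to 0.0220% (1.82, 1.70 to 1.94) and from 0.00585% to 0.0351% (2.58, 2.49 to 2.68). Both genes of the ribosomal segment thus stood higher in shallow cells by a similar factor within each library.

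Malat1 went from 1.32% in deep to 3.64% in shallow cells of Olaparib + LLY-283 (1.47, 1.46 to 1.48). In Combo it went from 1.10% to 1.87% (0.77, 0.76 to 0.78), and the median shallow cell, at 0.681%, lay below the median deep cell, at 1.14%. The summed share and the typical cell thus pointed in opposite directions in Combo. Neat1 went from 0.0523% to 0.108% (1.05, 1.00 to 1.11) and from 0.0602% to 0.181% (1.59, 1.55 to 1.63). Kcnq1ot1 was higher in shallow cells of Olaparib + LLY-283, at 0.0287% against 0.0193% (0.57, 0.47 to 0.67), and lower in those of Combo, at 0.0128% against 0.0184% (-0.52, -0.67 to -0.38).

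The shallow cells were a different mixture of classes. In Olaparib + LLY-283, 736 of the 2566 were neutrophil-like, 308 macrophage-like, 65 tumor-like and 1168 of no class. In Combo, 882 of the 3007 were neutrophil-like, 33 tumor-like and 1932 of no class. The low tumor-like counts follow in part from the naming rule, which asks for 3 tumor marker UMIs. These markers held a median of 0.101% and 0.0958% of the UMIs of tumor-like cells, so few cells under 2000 UMIs could reach 3. Over all depths, 2807 of the 5220 and 719 of the 3054 cells of no class lay in clusters named as tumor. Within neutrophil-like cells Gm42418 and Malat1 differed less by depth than over all cells, as did Neat1 in Combo, whereas Neat1 in Olaparib + LLY-283 differed more, at a log2 ratio of 1.47. In that library 151 of the 887 neutrophil-like cells had 2000 UMIs or more. Of the 887, 134 had a doublet score over 0.25 and 64 lay in clusters named as tumor. Their part in the depth differences was not tested. Gm42418 took 0.281% in shallow and 0.153% in deep cells of Olaparib + LLY-283 and 0.674% and 0.385% in Combo. Neat1 took 0.203% and 0.0729%, then 0.367% and 0.226%. Malat1 took 2.70% and 1.92%, then 3.18% and 2.33%, higher in shallow cells of both libraries. Within tumor-like cells of Olaparib + LLY-283, Malat1 took 2.87% in shallow and 1.23% in deep cells and Gm42418 0.344% in shallow ones. In the 33 shallow tumor-like cells of Combo, Malat1 took 0.774%, Gm42418 1.40% and Gm26917 0.131%, and 1 cell gave 32 of the 45 Gm26917 UMIs. Of these 33 cells, 13 held 20% or more mitochondrial UMIs. The same held for 66 of the 882 shallow neutrophil-like cells of Combo and 0 of the 65 shallow tumor-like cells of Olaparib + LLY-283.

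Over 7 steps of depth, Gm42418 fell short of the previous step at every step in both libraries. It took 0.402% in cells of 500 to 1000 UMIs and 0.0422% in the 30 cells over 50000 UMIs of Olaparib + LLY-283, and 1.48% and 0.123% in Combo. Gm26917 followed the same order. Malat1 was highest not in the shallowest cells but at 1000 to 2000 UMIs in Olaparib + LLY-283 (3.85%) and at 2000 to 5000 UMIs in Combo (3.24%), with 0.919% in the shallowest Combo cells. Neat1 in Combo had the same shape, with 0.0489% in the shallowest cells and 0.284% in the next step.

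**Figure D2:**
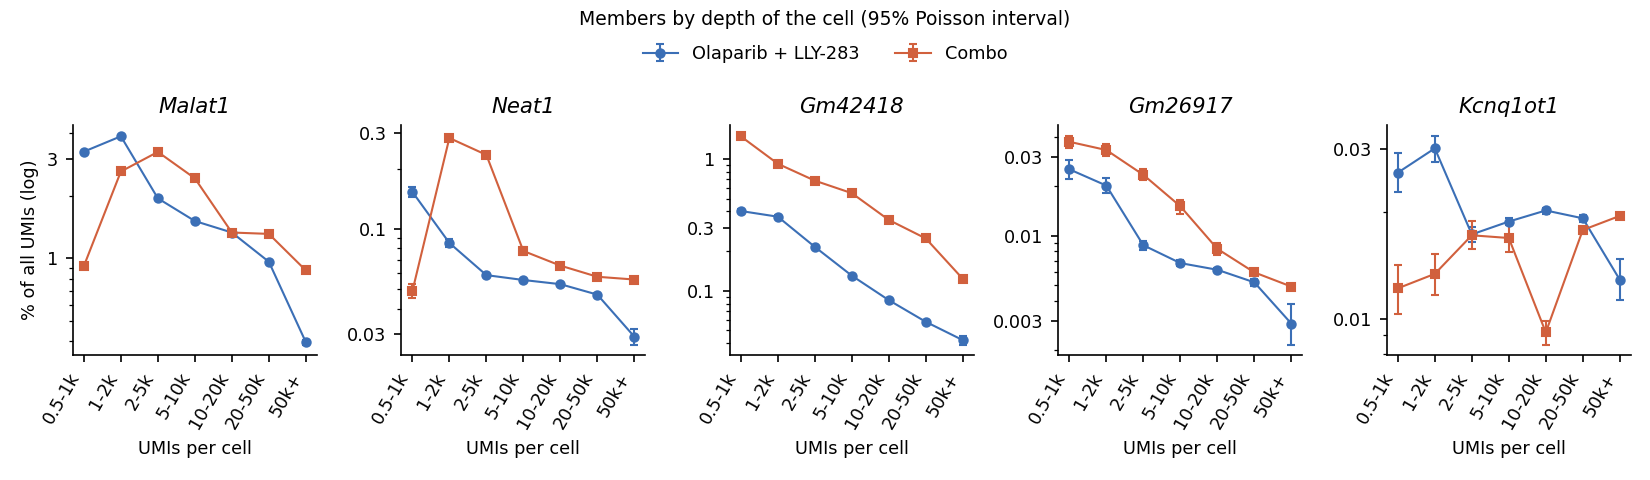
Share of all UMIs (percent, log axis) of each noncoding RNA by the number of UMIs in the cell (7 steps, where k stands for 1000), for cells of Olaparib + LLY-283 (circles) and of Combo (squares), with 95% exact Poisson intervals. Gm42418 declines at each step in both libraries, from 1.48% to 0.123% in Combo, while Malat1 in Combo peaks at 3.24% between 2000 and 5000 UMIs.

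The fourth comparison set cells with 20% or more mitochondrial UMIs against the rest. A high mitochondrial share is commonly taken as a sign of a damaged cell, and such cells are often filtered out. The members split: Gm42418 was higher in these cells of both libraries, and Malat1 was lower. Malat1 took 0.818% of UMIs against 1.36% in Olaparib + LLY-283, a log2 ratio of -0.73 (-0.86 to -0.60), and 0.639% against 1.12% in Combo (-0.80). Gm42418 took 0.628% against 0.103% (2.60) and 1.37% against 0.197% (2.80). Of 10 pairs, 6 reached 2-fold, where 51.9% of genes in Olaparib + LLY-283 and 35.3% in Combo did in either direction. The first share is a weak background, as genes needed 100 UMIs over both sides and could have none in the 86 cells. A fraction of a UMI then stood in for the count, which can pass 2-fold by itself. In Combo only 1.85% of genes were 2-fold higher, and 0.117% had a larger ratio than Gm42418. Gm26917 was higher by 2.12 on 17 UMIs in Olaparib + LLY-283 and by 2.05 on 359 UMIs in Combo, of which 1 cell gave 83. With the cell of the most Gm26917 UMIs left out on each side, the Combo ratio was 1.68 (1.51 to 1.86). Kcnq1ot1 was higher in Olaparib + LLY-283 (1.10, 0.47 to 1.66, on 25 UMIs; 0.87 with such a cell left out) and lower in Combo (-1.07, -1.34 to -0.81). Neat1 stood at 0.43 (-0.04 to 0.86) and -0.73 (-0.86 to -0.61).

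A share of all UMIs is lowered by the mitochondrial UMIs themselves, so the values were also taken over the other UMIs. Malat1 was then level between the cells of high and low mitochondrial share, at 1.28% against 1.37% in Olaparib + LLY-283 (-0.10) and 1.16% against 1.13% in Combo (0.04), near the 0.06 of the median gene in Combo. Neat1 was level in Combo, at 0.0685% against 0.0634% (0.11), and 2-fold higher in Olaparib + LLY-283, at 0.113% against 0.0539% (1.06, on 43 UMIs). Kcnq1ot1 in Combo was no longer 2-fold lower, at 0.0159% against 0.0186% (-0.23, -0.50 to 0.03), and in Olaparib + LLY-283 its ratio was 1.73 (1.11 to 2.30). Gm42418 stood at 0.986% against 0.104% (3.24) and 2.49% against 0.2% (3.64). On this scale 54.2% and 14.1% of genes differed 2-fold, with a median of 0.85 in Olaparib + LLY-283. Genes with few or no UMIs in the 86 cells enter both the share and the median of that library. Thinned to 500 UMIs, 98.9% of the high-mitochondrial cells of Combo held a Gm42418 UMI and 87.5% a Malat1 UMI, against 7.38% for Neat1 and 3.03% for Kcnq1ot1.

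Finer steps of mitochondrial share showed that the level values for Malat1 hid a peak. Over non-mitochondrial UMIs, Malat1 took 1.35% in Olaparib + LLY-283 cells under 1% mitochondrial, 7.71% in those from 5 to 10%, 5.66% from 10 to 20% and 1.43% from 20 to 40%. In Combo the same steps gave 1.12%, 4.93%, 5.16% and 1.41%, and Malat1 then took 0.918% from 40 to 60% and 0.844% above 60%. Cells between 5 and 20% mitochondrial thus held the largest Malat1 shares, in both libraries.

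Kcnq1ot1 and Neat1 had the same peak in Combo. Kcnq1ot1 took 0.0162% under 1%, 0.0528% from 5 to 10% and 0.00991% above 60%. Neat1 took 0.0645%, 0.199% and 0.0241% at the same steps. Gm26917 took 0.0622% from 5 to 10%, 0.0722% (0.0634 to 0.0819) from 10 to 20% and 0.0745% (0.0662 to 0.0836) from 20 to 40%. The last fell to 0.0535% without the cell that gave 83 of its 292 UMIs, and above 60% the share was 0.0113% on 8 UMIs. Gm42418 alone was higher at every step in Combo, going from 0.163% under 1% to 1.10% from 5 to 10%, 2.39% from 20 to 40% and 2.77% above 60%. In Olaparib + LLY-283 it took 0.0784% in cells under 1% and 0.983% in the 58 cells from 20 to 40%, the last step with enough cells. Neat1 and Kcnq1ot1 showed no fall beyond counting error by that step in this library. Neat1 took 0.133% from 5 to 10% and 0.142% (0.103 to 0.191) from 20 to 40%. Kcnq1ot1 took 0.0651% and 0.0825% (0.0534 to 0.122) at the same steps.

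**Figure D3:**
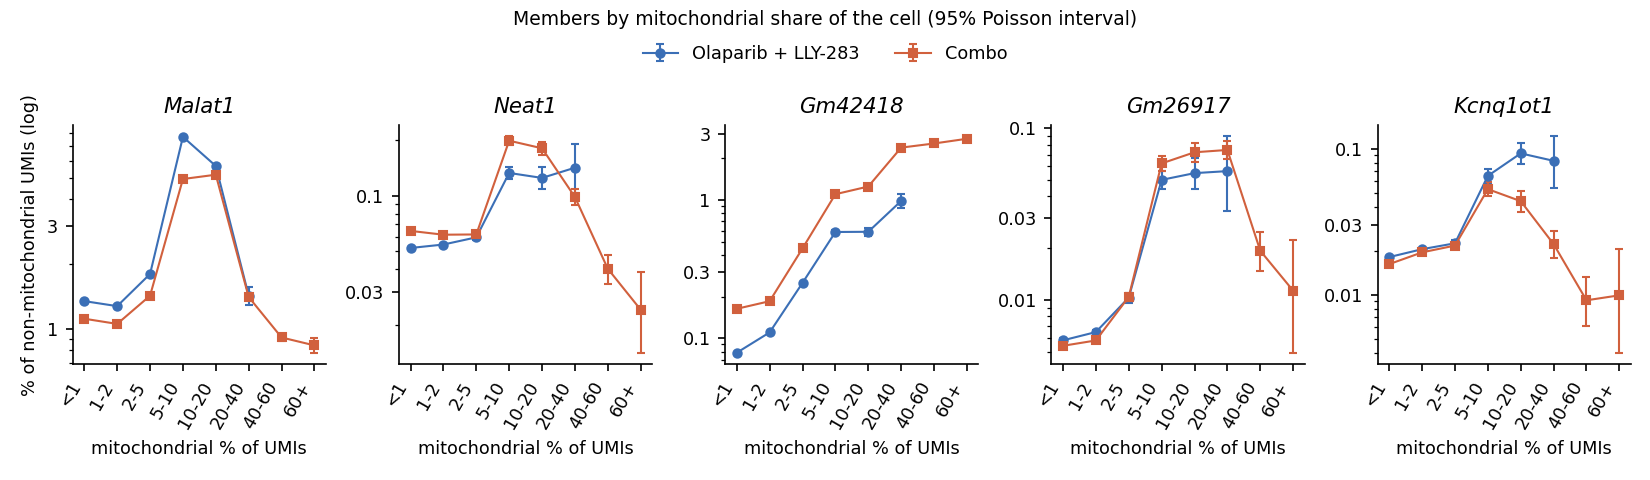
Share of non-mitochondrial UMIs (percent, log axis) of each noncoding RNA by the mitochondrial share of the cell (8 steps in Combo, 6 in Olaparib + LLY-283), with 95% exact Poisson intervals. Malat1 peaks between 5 and 20% mitochondrial at 7.71% and 5.16%, whereas Gm42418 in Combo goes on to 2.77% in cells above 60%.

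The cells with 20% or more mitochondrial UMIs were almost all shallow, 86 of 86 in Olaparib + LLY-283 and 1534 of 1586 in Combo, and 1467 of those in Combo had no class, 82 were neutrophil-like and 19 tumor-like. Among cells under 2000 UMIs alone, Malat1 took 3.71% of all UMIs below 20% mitochondrial and 0.818% above it in Olaparib + LLY-283, and 2.84% and 0.517% in Combo. Neat1 in Combo took 0.296% and 0.0194%, Kcnq1ot1 0.0178% and 0.00595%, and Gm26917 0.0428% and 0.0244%. Gm42418 took 0.372% and 0.628% in Olaparib + LLY-283 and 1.02% and 1.36% in Combo, the one of the 5 members that was higher above the limit in both libraries at this depth. The shallow Combo cells below the limit were largely neutrophil-like, 816 of 1473, and the part of this mixture of classes in the values was not tested. Among cells of no class alone, 70 and 1467 of them above the limit, Malat1 took 0.610% in Olaparib + LLY-283 and 0.535% in Combo, and Gm42418 0.674% and 1.39%.

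**Figure D4:**
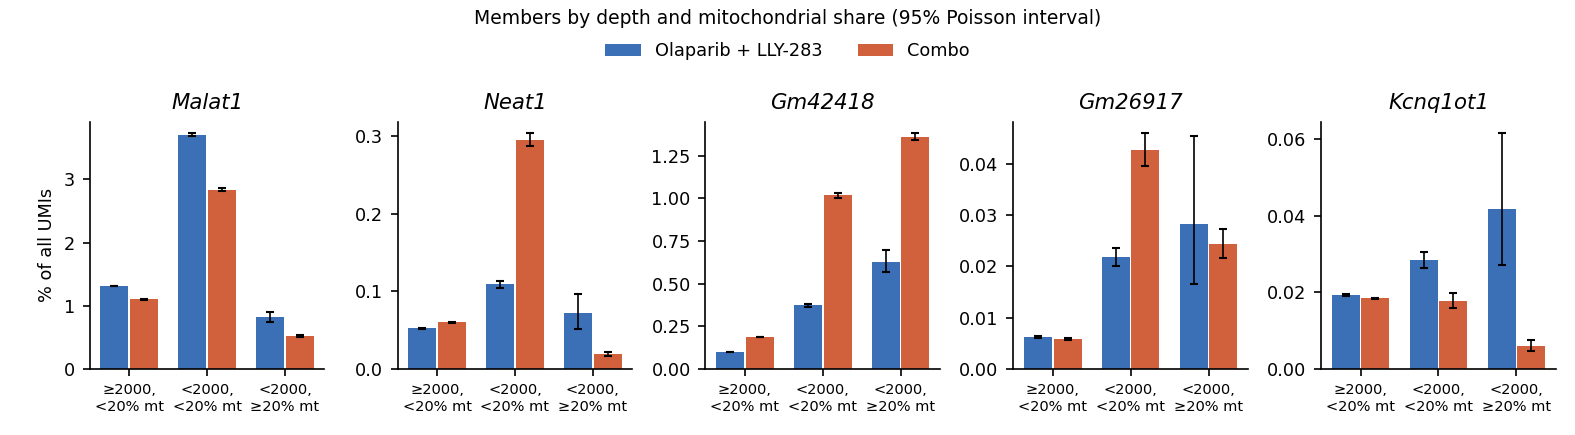
Share of all UMIs (percent) of each noncoding RNA in cells of 2000 or more UMIs and under 20% mitochondrial, cells under 2000 UMIs and under 20% mitochondrial, and cells under 2000 UMIs with 20% or more mitochondrial; bars are library values and lines 95% exact Poisson intervals. Malat1 goes from 3.71% to 0.818% and from 2.84% to 0.517% between the groups of shallow cells, while Gm42418 is highest in the cells rich in mitochondrial UMIs.

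The ratio of Malat1 to Gm42418 UMIs summarises the split. It was 13.1 (13.1 to 13.2) over all Olaparib + LLY-283 cells and 5.36 over all Combo cells, and 1.3 (1.14 to 1.49) and 0.466 in cells with 20% or more mitochondrial UMIs. In the high-mitochondrial cells of Combo the UMIs of Gm42418 thus outnumbered those of Malat1. The neighbours on chromosome 17 did not keep a fixed ratio either: there were 15.9 Gm42418 UMIs per Gm26917 UMI in Olaparib + LLY-283 and 32.5 in Combo, and within Combo 31.7 in cells under 20% mitochondrial and 53.3 in the others, or 69.1 (61.4 to 78.1) without the cell of 83 Gm26917 UMIs. Within neutrophil-like cells of Combo the ratio was 70.5 below 20% mitochondrial and 14.2 above, but that cell gave 83 of the 97 Gm26917 UMIs above the limit, and without it the ratio there was 94.5 (56.1 to 173). The overlapping model AY036118 had no UMI in either library, and CT010467.1 had 3312 and 5393. AY036118 lies wholly inside CT010467.1 on the same strand, so its lack of UMIs cannot be read as absence of its RNA.

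Cluster 13, a cluster of 358 and 146 cells that got no name from its markers, held large shares of Malat1 although the 5 members were left out of the clustering. Its cells were shallow in Olaparib + LLY-283, with a median of 1415.5 UMIs, and had a median mitochondrial share of 5.75% and 6.35%. Malat1 took 6.02% and 5.44% there against 1.42% and 1.10% in the other clustered cells, log2 ratios of 2.09 and 2.30. Kcnq1ot1 took 0.0666% and 0.114% (1.78 and 2.66), Gm42418 0.516% and 0.908% (2.27 and 2.22) and Gm26917 0.0318% and 0.0771% (2.26 and 3.69). Neat1 took 0.0752% and 0.127% (0.48 and 1.02), and 1 cell gave 138 of its 776 UMIs in Combo. In these contrasts 29.1% and 38.7% of genes differed 2-fold in either direction, and as a cluster is built from the same cells they are a description. The contrasts leave out cells with 20% or more mitochondrial UMIs, and the 3627 and 88 cells with a doublet score over 0.25. Cluster 13 held 233 of the 586 and 82 of the 392 cells between 5 and 20% mitochondrial, and without it Malat1 still took 5.63% and 3.96% of all UMIs in such cells.

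Gene lists related to the members gave the surrounding pattern. Transcripts known to keep introns in the nucleus were higher by 2-fold in cluster 13 for 6 and 8 of 12 genes tested, with medians of 1.07 and 1.39 beside 0.28 and 0.36 for all genes; Rsrp1 was at 1.38 and 1.49. Of all genes, 21.7% and 28.8% were 2-fold higher there and 7.45% and 9.87% lower. Cytoplasmic messengers went the other way, with 4 and 7 of 12 lower and medians of -0.81 and -1.04. Actb, the cytoskeletal actin, was at -0.58 and -0.97. Mitochondrially encoded messengers were 2-fold higher for 12 of 12 in both libraries. The cytoplasmic list, unlike the other lists, was not kept out of the clustering. Neither were mt-Rnr1 and mt-Rnr2, which are among the leading genes of cluster 13. The cytoplasmic and mitochondrial values of this cluster are thus a description only. By depth, the intron-keeping transcripts were 2-fold higher in shallow cells for 5 of 12 in each library, among them Ccnl1 at 1.02 and 1.78, while protein genes of paraspeckles were 2-fold higher for 0 of 17 and those of nuclear speckles for 0 of 20. Of all genes, 15.6% in Olaparib + LLY-283 and 10.4% in Combo were 2-fold higher in shallow cells. In high-mitochondrial cells the intron-keeping transcripts were not among the genes that stood higher, 0 of 12 in both libraries with medians of -0.57 and -0.48 beside 0.22 and -0.78 for all genes. Over non-mitochondrial UMIs 4 of the 12 were 2-fold higher in Olaparib + LLY-283, where 46.6% of genes were, and 0 in Combo. The values for all genes of Olaparib + LLY-283 include genes with few or no UMIs in its 86 high-mitochondrial cells.

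Of 37 other long noncoding RNAs tested, 11 were 2-fold higher in shallow cells of Olaparib + LLY-283 and none lower, whereas in Combo 6 were higher and 6 lower. The shares of all genes that were lower were 3.54% and 16.4%, so the 6 of 37 lower in Combo are near the background. In high-mitochondrial cells of Combo, 2 were higher and 16 lower, with a median of -0.86 beside -0.78 for all genes. Gas5, a host gene of small nucleolar RNAs, was at -0.65 there. The list of gene models related to ribosomal RNA also holds Lars2, which is annotated as a protein-coding gene. CT010467.1 was higher by 2.57 and Lars2 by 2.91 in high-mitochondrial cells of Combo, 2 of the 3 models tested. Genes of the Kcnq1 imprinted domain were 2-fold lower there for 6 of 6 tested, in a comparison where 33.4% of genes were 2-fold lower. Over non-mitochondrial UMIs 1 of the 6 was, and Kcnq1ot1 was not. Genes next to Malat1 and Neat1 on chromosome 19 gave 0 of 9 in either direction, with a median of -0.34.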

How the data were processed

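Single-cell RNA of EMT6 tumors was measured in 2 libraries made with 3′ reagent kits. Per the labels and the study's methods, the authors aligned reads to mm10 with Cell Ranger (the deposited matrix headers name 6.1.2; the methods name another release) and deposited raw counts, as UMI counts per gene and cell; the submitters' notes also list bcl2fastq 5.0.1 and Seurat 4.1.0. The lowest cell held 500 UMIs, and the libraries held 147214934 and 162522700 UMIs. Whether intronic reads were counted is not given in the sources used here; if they were, unspliced nuclear transcripts gain UMIs.

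The members and gene lists were chosen with earlier results of these data known. Cell classes were set from marker UMIs: at least 3 UMIs of at least 2 markers, holding at least 0.2% of the cell's UMIs (CAF 1%). Tumor needed at least 3 UMIs and 0.05%, with no minimum number of markers. A cell that passed for several classes other than tumor went to the leading one if it led 3-fold, and was called mixed otherwise. Cells that passed for tumor and another class were called mixed whatever the lead. Cells were also clustered without the 5 members and without the gene lists other than that of cytoplasmic messengers (2000 variable genes, 30 principal components, Leiden resolution 1.3). Levels were UMIs of a gene over all UMIs of the cells, with 95% exact Poisson intervals and ratios with exact intervals. Genes with at least 100 UMIs over both sides formed the background of each comparison. Where a gene had no UMI on 1 side, a fraction of a UMI was added to both counts. With few cells on 1 side, the background thus holds counting error. With 1 library per group no test was run. Thinning drew 500 UMIs from each cell. Scrublet found no threshold of its own, so cells with a score over 0.25 were left out as doublets only as an alternative. The ratio scripts were tested on simulated data. Scanpy 1.11.5 and leidenalg 0.10.2 were run under Python 3.11.15, with scipy 1.17.1 for the intervals, numpy 2.4.6 and matplotlib 3.10.9. The named genes were the 5 members, the 3 genes most correlated with each, and 2 to 4 genes of a list with the most UMIs. Alternatives were another denominator, a mean over cells, doublets or the deepest 1% of cells left out, other limits, classes from clusters, a quality filter, thinning, single classes and single cells left out.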

Additional observations from a re-analysis of the deposited data

Results flagged for a closer look

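Kcnq1ot1 differences by depth and by mitochondrial share pointed in opposite directions in the libraries. Between cells under 2000 UMIs and deeper cells its log2 ratio was 0.57 in Olaparib + LLY-283 and -0.52 in Combo, and the 95% counting intervals lay on opposite sides of 0. The median of all genes there was 0.1 and -0.39. Between cells of 20% or more mitochondrial UMIs and the rest the Kcnq1ot1 ratio was 1.10 in Olaparib + LLY-283, on 25 UMIs in 86 cells, and -1.07 in Combo. The median of all genes was 0.22 and -0.78, with 33.8% of genes 2-fold higher in the first and 33.4% 2-fold lower in the second. The values for all genes of Olaparib + LLY-283 include genes with few or no UMIs in those 86 cells. Over non-mitochondrial UMIs the first Kcnq1ot1 ratio was 1.73 and the second -0.23 (-0.50 to 0.03), an interval that holds 0, beside medians of 0.85 and 0.06. By depth on that scale the ratios were 0.61 and -0.21 (-0.36 to -0.06). Neat1 by mitochondrial share was 0.43 (-0.04 to 0.86) and -0.73 (-0.86 to -0.61), and only the second interval left out 0. The differences between the libraries were not tested, as each group is 1 library.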

How the results depend on the processing

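No paired analysis was possible because each group is 1 library; for the same reason no replicate could be left out. Of the 25 library differences, 4 reached 2-fold; 8 did with a mean over cells, 2 without doublets, which took out 22.6% and 1.48% of the cells scored, and 1 with classes from clusters, and the other settings gave 3 to 6. By depth 7 of 10 reached 2-fold, 3 within neutrophil-like cells, and 5 to 8 otherwise. By mitochondrial share 6 of 10 did, 4 to 9 otherwise; in cells of 2000 UMIs or more only the 5 Combo pairs had cells on both sides, and 3 of them did. By class 20 of 65 did, 19 to 23 otherwise. Signs turned for Gm26917 by mitochondrial share in Combo (-0.81 in cells under 2000 UMIs, -0.12 as a mean over cells), for Kcnq1ot1 there (0.80 in cells of 2000 UMIs or more) and in DC-like cells between libraries (0.20 as a mean over cells), and for Neat1 by depth in Combo (-0.35 at a limit of 1000 UMIs, -1.10 within tumor-like cells). The causes were not tested. The mitochondrial comparison was not run within tumor-like cells, 0 and 19 of which were above the limit. Neutrophil-like cells of cluster 8 alone, cells of no class, cells outside cluster 13 and leaving out the cell with the most UMIs of a member on each side were chosen as alternatives after seeing the data. The last gave 3 of 25, 7 of 10, 5 of 10 and 19 of 65 2-fold differences for the 4 comparisons. Counting limits the small classes: under 100 UMIs stand behind Gm26917 and Kcnq1ot1 in most of them.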

Other observations

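After thinning to 500 UMIs, 1210 cells of Olaparib + LLY-283 (7.51%) and 665 of Combo (8.82%) held no Malat1 UMI. Cells with 20% or more mitochondrial UMIs made up 29.8% of the Combo cells without Malat1 and 20.2% of those with it. The cells without Malat1 were not shallow as a group in Combo, with a median of 10323 UMIs against 3108. Neat1 was found in 6.62% of these Combo cells and in 31.2% of the others.

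Myogenic-like cells of 2000 UMIs or more differed between the libraries in Malat1, with 1.76% of UMIs in 8 cells of Olaparib + LLY-283, or 0.961% without the cell that gave 267 of the 531 UMIs, and 0.0995% in 8 cells of Combo, whereas the shallow ones took 0.249% and 0.336%. Cluster 6 was an unnamed cluster led by Mir6236, mt-Rnr1 and mt-Rnr2. As a mean over its cells, the Gm42418 share was 0.388% in Olaparib + LLY-283 and 1.49% in Combo. That of Malat1 was 3.55% and 0.818%. Over the summed UMIs of cluster 6, all members together took only 2.01% in Olaparib + LLY-283 and 0.618% in Combo. Both Combo means and the Malat1 mean of Olaparib + LLY-283 thus lie above the summed shares. They cannot be set beside the summed shares given elsewhere. The ratio of Malat1 to Gm42418 UMIs in cluster 6 was 7.10 and 0.426.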
